A study of Homo sapiens with 12 samples.

Results

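Messenger RNA of 9 genes of insulin and PI3K signalling was followed through MAPK inhibition and drug removal. They are the insulin receptor substrates IRS1 and IRS2, the PI3K regulatory subunits PIK3R1 and PIK3R3, the PI3K inhibitor PIK3IP1, the kinase SGK1 and the transcription factors FOXO1, FOXO3 and FOXO4. They were chosen by gene symbol, with earlier results of these data known, from the 44659 genes listed. Each symbol matched 1 row. All 9 passed the filter on low counts, which left 15916 genes for testing. The cells were A375, a human melanoma line obtained from ATCC, kept in medium with serum. Control cells (CC) were kept in DMSO over 72 h. Treated cells (TC) were given 500 nM of the BRAF inhibitor vemurafenib and 500 nM of the MEK inhibitor cobimetinib for 72 h (MAPKi) and were collected at once. Persister cells (PC) had the same 72 h of MAPKi and then 2 days without drug, and recovered cells (RC) had 9 days without drug. There were 3 libraries per group, all from a single cell line and, per the labels, from cytoplasmic RNA. PC and RC had no DMSO control of their own day, and cells were passaged where needed, so drug history, days in culture and passage cannot be told apart in these groups. It is not stated that the libraries of a group came from separate cultures, so p-values measure the spread between these libraries, which may be technical.

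Insulin and insulin-like growth factors bind receptor tyrosine kinases, which phosphorylate IRS1 and IRS2. These adaptors recruit PI3K through its regulatory subunits, and PI3K makes the lipid signal that activates PDPK1, AKT and SGK1. AKT and SGK1 phosphorylate FOXO proteins, which then leave the nucleus and stop driving their target genes. FOXO factors are known to raise the transcripts of insulin and growth factor receptors and adaptors when PI3K signalling is low, a feedback described in several tissues. Melanoma cells with mutant BRAF rely on MAPK signalling, and the PI3K arm is a known alternative route for survival signals. Transcript levels carry no measure of phosphorylation or of where a FOXO protein is located.

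The promoter windows that carried the FOXO core element, GTAAACA or its reverse complement TGTTTAC, are shown because FOXO factors are among the genes studied. RefSeq windows (GRCh38.p14) of 300 bases, from 250 before to 50 after an annotated start, were found for all 9 genes, 23 windows in all. The element lay in 2 of these 23 windows, 1 of PIK3IP1 and 1 of FOXO4, against 3.42% of all 35116 windows. The sequences run from 250 bases before to 30 bases after the start, in the direction of transcription, with the element in capitals. The PIK3IP1 window is chr22:31292459-31292738, minus strand, with the element at bases 17 to 23 after the start. The FOXO4 window is chrX:71095601-71095880, plus strand, with the element at bases 24 to 30 after the start.
PIK3IP1: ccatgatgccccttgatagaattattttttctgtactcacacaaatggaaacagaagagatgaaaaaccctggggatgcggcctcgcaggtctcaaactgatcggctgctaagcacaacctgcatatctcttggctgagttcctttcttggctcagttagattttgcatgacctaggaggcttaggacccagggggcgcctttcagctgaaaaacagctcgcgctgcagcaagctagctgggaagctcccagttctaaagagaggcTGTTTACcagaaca
FOXO4: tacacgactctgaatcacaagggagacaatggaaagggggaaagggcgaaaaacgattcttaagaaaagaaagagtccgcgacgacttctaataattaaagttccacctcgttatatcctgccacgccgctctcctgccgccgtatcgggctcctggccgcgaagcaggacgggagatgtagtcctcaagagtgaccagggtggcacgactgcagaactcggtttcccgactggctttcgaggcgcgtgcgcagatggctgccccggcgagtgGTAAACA
Both strands were also searched for 4 other motifs. An AP-1 site, TGANTCA, lay in 2 of the 23 windows (FOXO3 and FOXO4, against 7.71% of all windows) and an E-box, CACGTG, in 1 (IRS1, against 7.26% of all windows). An ETS site, CCGGAAG (10.3% of all windows), and an M-box, TCATGTG (2.92% of all windows), were in none of the 23. A match describes letters in a window and not a bound site.

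Library totals ran from 37773389 to 55567097 counts, and the 9 genes had between 63 and 19118 counts in a library. Levels are CPM, the reads of a gene relative to the TMM-adjusted total of its library, and differences are log2 fold changes from one model over all 12 libraries. The MAPK output gene DUSP6, a phosphatase of ERK, lay at 77.6, 94.4 and 297 CPM in CC and between 3.25 and 5.26 CPM in TC. SPRY4, another feedback inhibitor, lay at 342, 270.3 and 720 CPM in CC and between 1.46 and 1.79 CPM in TC. In PC, 2 days after the drug was removed, both were still low, at 4.51 to 6.095 CPM for DUSP6 and 0.674 to 0.925 CPM for SPRY4, and neither was told apart from TC (edgeR adjusted p = 0.582 and 0.156). In RC they lay at 125 to 145 and 249 to 285 CPM. CC replicate 3 stood apart from the other CC libraries in both genes, and its values are marked below where they matter. Of the 7 melanoma and melanocyte markers, SOX10 was between 539 and 1067 CPM in every library, while MLANA stayed between 0.339 and 1.94 CPM. Their summed level was 1661 to 1889 CPM in CC, 7076 to 10285 in TC, 3484 to 5090 in PC and 1526 to 1592 in RC, so it moved with treatment, and its part in the results below was not tested. The 4 leukocyte markers stayed under 1 CPM each, the 4 epithelial markers summed to at most 2.66 CPM and the 3 endothelial markers to at most 5.23 CPM. CDH5 was at 0 counts in all libraries.

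Under MAPKi, 6 of the 9 genes rose and 2 fell at an adjusted p under 0.05 (edgeR's quasi-likelihood test, two-sided, Benjamini-Hochberg over all tested genes). Over all tested genes, 33.2% rose and 34.7% fell in TC against CC. The 9 genes were chosen with earlier results of these data known, so setting them beside all tested genes is a description only. The genes that rose were IRS1, PIK3R1, PIK3R3, PIK3IP1, FOXO3 and FOXO4, and those that fell were SGK1 and FOXO1. IRS2 did not pass the test. Beyond 1.5-fold, by a test against that size (glmTreat), 4 rose and 1 fell, against 16.1% and 19.3% of all tested genes. In PC against CC, 5 rose and 2 fell, against 33.2% and 35.9% of all tested genes, and beyond 1.5-fold 4 rose and 2 fell, against 17.2% and 19.9%. In RC against CC, 1 rose and 3 fell, against 18.2% and 19.1% of all tested genes, and none passed beyond 1.5-fold in either direction, against 1.35% and 2.52%. The median log2 fold change of the 9 genes was 0.52 in TC, 0.41 in PC and -0.09 in RC, beside -0.02, -0.04 and 0.00 over all tested genes. These comparisons share the CC libraries. In these bulk libraries a lower level can mean less RNA per cell or fewer cells that express the gene, which cannot be told apart.

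**Figure D1:**
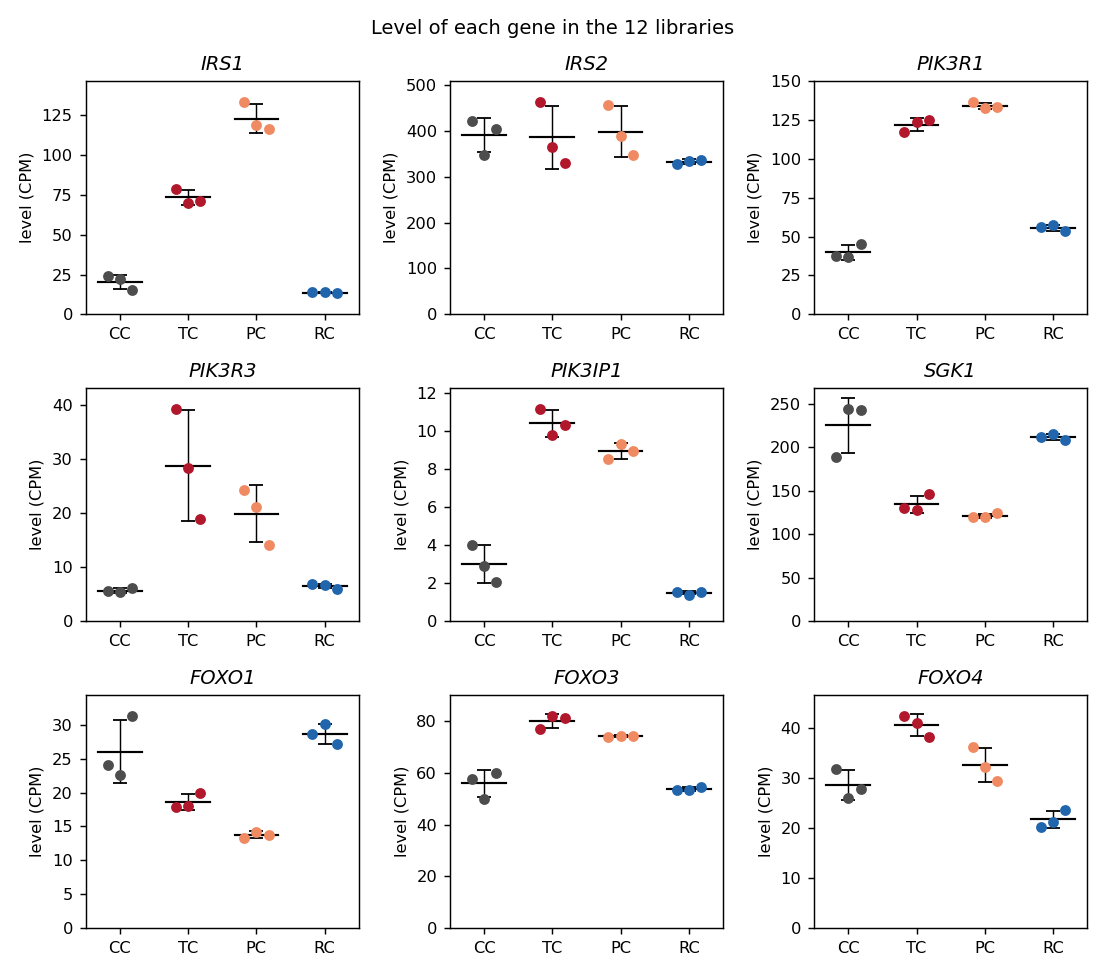
Level in CPM (vertical axis, from 0) of each of the 9 genes in the 12 libraries, by group. Points are libraries, bars the mean and whiskers 1 SD (n = 3). IRS1, PIK3R1, PIK3R3 and PIK3IP1 lie higher in TC and PC than in CC and RC without overlap, SGK1 and FOXO1 lie lower, and IRS2 overlaps between CC, TC and PC.

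IRS1, the adaptor that carries signals from the insulin and IGF1 receptors to PI3K, showed the widest swing of the 9. The gene is on chromosome 2, 226731312 to 226799820, minus strand (GRCh38, GENCODE v44). Its level was 23.9, 21.9 and 15.5 CPM in CC libraries, 79.0, 70.1 and 71.3 in TC libraries, 133, 119 and 116 in PC libraries, and 13.9, 13.8 and 13.1 in RC libraries. Every PC library was above every TC library, every TC library above every CC library, and every RC library below every CC library. IRS1 rose 3.59-fold under MAPKi (log2 fold change 1.85 ± 0.13 (SE), edgeR adjusted p = 9.71e-08) and stood 6.01-fold above CC in PC (2.59 ± 0.13, edgeR adjusted p = 6.4e-09). It rose again from TC to PC, between which DUSP6 and SPRY4 stayed low, by 0.74 on the log2 scale (SE 0.12, edgeR adjusted p = 0.00106). From PC to RC it fell by 3.18 on the log2 scale (SE 0.14, edgeR adjusted p = 1.39e-09). In RC it ended below CC, a log2 fold change of -0.59 ± 0.13 (edgeR adjusted p = 0.00405). The lowest CC value was that of replicate 3, which was nearest to RC. The order of levels was RC, CC, TC and PC, and each neighbouring pair differed.

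IRS2, the paralog with a similar role, did not follow IRS1. It is on chromosome 13, 109752695 to 109786583, minus strand. Its level was 421, 349 and 405 CPM in CC libraries, 463, 365 and 331 in TC libraries, 457, 389.6 and 348 in PC libraries, and 327, 334 and 337 in RC libraries. The CC, TC and PC libraries overlapped, and RC lay below CC and PC with little spread. The log2 fold change was -0.02 in TC (95% interval -0.29 to 0.26, edgeR adjusted p = 0.9) and 0.03 in PC (-0.25 to 0.30, edgeR adjusted p = 0.866). These intervals leave room for shifts of up to about 0.3 on the log2 scale. RC was lower than PC by a log2 fold change of -0.26 ± 0.13 (edgeR adjusted p = 0.085). That difference passed the threshold with DESeq2 (adjusted p = 0.0452), with PC and RC fitted alone (edgeR adjusted p = 0.0299), and without TC replicate 1 (edgeR adjusted p = 0.0313) or PC replicate 3 (edgeR adjusted p = 0.0354). RC against CC was -0.23 ± 0.13 (edgeR adjusted p = 0.166), so no pair of groups differed in IRS2 in the main test.

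Levels of different genes were set side by side per kilobase of merged exons (10019 bases for IRS1 and 8156 for IRS2, GENCODE v44). On this scale IRS2 was the highest of the 9 genes in every group, at 48.0 ± 4.64 CPM per kilobase in CC (SD, n = 3), and IRS1 stood at 2.04 ± 0.44. IRS1 made up 4.42%, 4.87% and 3.03% of the IRS1 and IRS2 sum in the CC libraries. Its share was 12.2%, 13.5% and 14.9% in TC libraries, 19.2%, 19.9% and 21.4% in PC libraries, and 3.34%, 3.24% and 3.07% in RC libraries. The share rose with treatment and again in PC without overlap between these groups, while CC replicate 3 was below all RC libraries. IRS2 remained the larger of the pair in every library. Isoforms with unequal exons would shift these shares, and isoforms were not measured. Reads were counted on exons of the NCBI annotation, so the GENCODE lengths may not match the exons counted. Both limits also hold for the FOXO shares below.

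**Figure D2:**
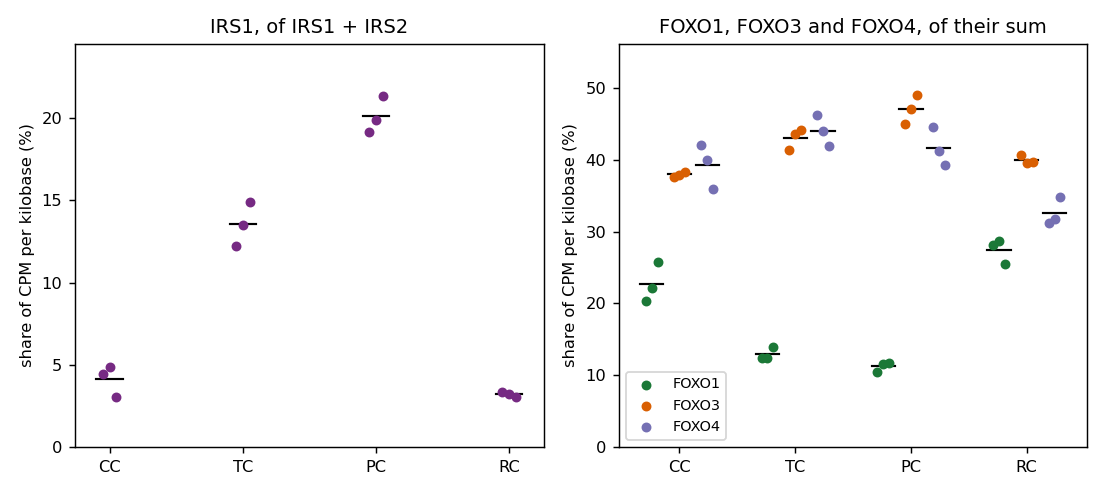
Share of the summed CPM per kilobase (percent, from 0) of IRS1 within IRS1 and IRS2 (left) and of each FOXO gene within FOXO1, FOXO3 and FOXO4 (right), by group. Points are libraries and bars their mean (n = 3). The IRS1 share is highest in PC, at 19.2% to 21.4%, and the FOXO1 share is lowest in TC and PC.

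The PI3K regulatory subunits PIK3R1 and PIK3R3 rose together under MAPKi. Another regulatory subunit, PIK3R2, also rose, 1.51-fold in TC (edgeR adjusted p = 2.6e-06) and 1.55-fold in PC (edgeR adjusted p = 1.52e-06). Neither rise of PIK3R2 passed beyond 1.5-fold (glmTreat adjusted p = 0.396 and 0.201). PIK3R1 encodes p85 alpha, which binds phosphorylated IRS proteins, stabilizes the catalytic subunit and holds it inactive until then. It is on chromosome 5, 68215740 to 68301821, plus strand. PIK3R1 lay at 37.4, 36.9 and 45.0 CPM in CC libraries, 117, 124 and 125 in TC libraries, 136, 133 and 133 in PC libraries, and 55.98, 57.2 and 53.6 in RC libraries. The 4 groups did not overlap, and RC stayed above all CC libraries. PIK3R1 was 3.07-fold higher in TC than in CC (log2 fold change 1.62 ± 0.08, edgeR adjusted p = 3.11e-09) and 3.37-fold higher in PC (1.75 ± 0.08, edgeR adjusted p = 1.66e-09). It fell by 1.27 on the log2 scale from PC to RC (SE 0.07, edgeR adjusted p = 1.84e-08). In RC it was still 1.40-fold above CC (log2 fold change 0.48 ± 0.07, edgeR adjusted p = 0.000451), the only gene of the 9 that stayed higher in the main test. TC and PC were not told apart in the main test (0.14 ± 0.07, edgeR adjusted p = 0.205), but the test passed without CC replicate 3 (edgeR adjusted p = 0.0316). The order of levels was CC, RC, TC and PC, and only the last pair was not told apart.

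PIK3R3, which encodes the p55 gamma subunit, started lower and varied more between libraries. It is on chromosome 1, 46040140 to 46133036, minus strand. Its level was 5.48, 5.35 and 6.12 CPM in CC libraries, 39.2, 28.3 and 18.8 in TC libraries, 24.3, 21.2 and 14.1 in PC libraries, and 6.84, 6.67 and 6.01 in RC libraries. All TC and PC libraries were above all CC and RC libraries, and TC and PC overlapped. PIK3R3 rose 5.08-fold in TC (log2 fold change 2.35 ± 0.25, edgeR adjusted p = 4.14e-06), the largest rise of the 9 genes in TC against CC. It was 3.51-fold above CC in PC (1.81 ± 0.25, edgeR adjusted p = 3.28e-05) and fell by 1.61 on the log2 scale from PC to RC (SE 0.24, edgeR adjusted p = 8.02e-05). RC and CC overlapped (0.20 ± 0.25, edgeR adjusted p = 0.549). From TC to PC the log2 fold change was -0.53 ± 0.24 (edgeR adjusted p = 0.125), and it reached -0.76 without TC replicate 3 (edgeR adjusted p = 0.0191). Replicate 3 was the lowest of its group in TC and PC for PIK3R3, and also for the pigment cell genes MITF (236 and 147 CPM), PMEL (419.6 and 187 CPM) and DCT (5261 and 1955 CPM). The part of these markers in the PIK3R3 values was not tested. The order of levels was CC, RC, PC and TC, in which RC and PC were the only neighbours that differed. A readthrough gene that overlaps PIK3R3 in RefSeq, P3R3URF-PIK3R3, was listed at 0 counts in every library. How reads on exons of both genes were assigned is not stated, so this 0 does not show whether PIK3R3 lost reads.

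PIK3IP1 encodes a membrane protein that binds the PI3K catalytic subunit and restrains it. It is on chromosome 22, 31281594 to 31292534, minus strand. The FOXO element shown above lay in the window of another annotated start, and the window of the start at 31292534 held none. PIK3IP1 lay at 4.02, 2.89 and 2.07 CPM in CC libraries, 11.1, 9.76 and 10.3 in TC libraries, 8.501, 9.32 and 8.95 in PC libraries, and 1.55, 1.39 and 1.53 in RC libraries. The 4 groups did not overlap. PIK3IP1 rose 3.47-fold in TC (log2 fold change 1.80 ± 0.19, edgeR adjusted p = 4.72e-06) and was 2.98-fold above CC in PC (1.58 ± 0.19, edgeR adjusted p = 1.34e-05). It then fell by 2.58 on the log2 scale from PC to RC (SE 0.20, edgeR adjusted p = 2.33e-07) and ended below its starting level, at -1.005 ± 0.20 against CC (edgeR adjusted p = 0.00211). This was the largest fall of the 9 in RC against CC, but it did not pass the 1.5-fold test (glmTreat adjusted p = 0.12) except without CC replicate 3, the lowest CC library. TC and PC were not told apart (-0.22, 95% interval -0.63 to 0.19, edgeR adjusted p = 0.437), and the order of levels was RC, CC, PC and TC.

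IRS1 and PIK3IP1 had the same course of calls against CC, higher in TC and PC and lower in RC. FOXO4 was the third of the 9 genes that was lower in RC than in CC. In all 3, RC libraries lay below every CC library.

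SGK1, a kinase related to AKT that PI3K also activates, moved the other way. It is on chromosome 6, 134169248 to 134318112, minus strand. SGK1 lay at 189, 244 and 243 CPM in CC libraries, 130.02, 128 and 146 in TC libraries, 119.8, 120.0 and 124 in PC libraries, and 211, 215 and 209 in RC libraries. All TC and PC libraries were below all CC and RC libraries, and RC lay inside the range of CC. The log2 fold change was -0.74 ± 0.09 in TC (1.67-fold lower, edgeR adjusted p = 1.39e-05) and -0.89 ± 0.09 in PC (1.86-fold lower, edgeR adjusted p = 2.6e-06). In TC the call beyond 1.5-fold was marginal (glmTreat adjusted p = 0.0438). It was lost with RLE size factors, with a looser count filter, with only the 2 groups compared, with DESeq2 at that threshold, and when any of 10 of the 12 libraries was left out (all but CC replicate 1 and TC replicate 3). SGK1 rose by 0.80 on the log2 scale from PC to RC (SE 0.09, edgeR adjusted p = 6.3e-06). RC against CC was -0.09 ± 0.09 (edgeR adjusted p = 0.467), and -0.20 without CC replicate 1, the lowest CC library (edgeR adjusted p = 0.037). PC against TC was -0.15 ± 0.09 (edgeR adjusted p = 0.261). SGK1 levels were ordered PC, TC, RC and CC, in which only TC and RC, as neighbours, differed (log2 fold change 0.65 ± 0.09, edgeR adjusted p = 3.89e-05).

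**Figure D3:**
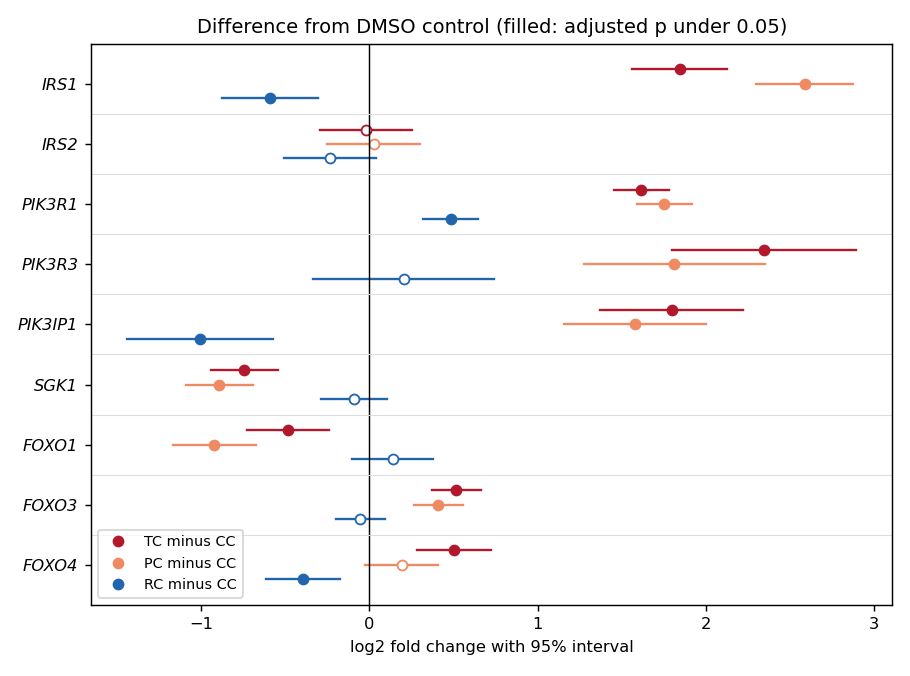
Log2 fold change (horizontal axis) of the 9 genes in TC, PC and RC against CC, with 95% intervals from the edgeR model over 12 libraries. Filled points have an adjusted p under 0.05. IRS1 in PC lies farthest to the right, at 2.59, and PIK3IP1 in RC farthest to the left, at -1.005.

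The FOXO genes did not move as a family. FOXO1, on chromosome 13, 40555667 to 40666641, minus strand, encodes the FOXO factor best known for its part in insulin response. Its level was 24.2, 22.6 and 31.4 CPM in CC libraries, 17.9, 18.04 and 19.9 in TC libraries, 13.2, 14.3 and 13.8 in PC libraries, and 28.7, 30.2 and 27.2 in RC libraries. PC lay below TC and TC below CC without overlap, and RC lay inside the range of CC. FOXO1 changed by -0.48 ± 0.11 on the log2 scale in TC (edgeR adjusted p = 0.00209) and by -0.92 ± 0.11 in PC (edgeR adjusted p = 1.27e-05). The further fall from TC to PC was -0.44 ± 0.11 (edgeR adjusted p = 0.0141), and RC was 2.09-fold above PC (1.06 ± 0.11, edgeR adjusted p = 3.59e-06). RC against CC was 0.14 ± 0.11 (edgeR adjusted p = 0.352). Without CC replicate 3, the highest CC library, it was 0.30 (edgeR adjusted p = 0.00999). The order of levels was PC, TC, CC and RC, and only CC and RC were not told apart.

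FOXO3, on chromosome 6, 108559835 to 108684774, plus strand, encodes a factor known for stress responses and for pro-apoptotic targets. It lay at 57.7, 49.9 and 60.2 CPM in CC libraries, 76.9, 82.1 and 81.2 in TC libraries, 73.9, 74.5 and 74.3 in PC libraries, and 53.5, 53.5 and 54.7 in RC libraries. TC and PC libraries were above all CC and RC libraries, and RC lay inside the range of CC. The rise was 0.52 ± 0.07 on the log2 scale in TC (1.43-fold, edgeR adjusted p = 2.31e-05) and 0.41 ± 0.07 in PC (1.33-fold, edgeR adjusted p = 0.000155), and neither passed beyond 1.5-fold. FOXO3 fell by 0.46 on the log2 scale from PC to RC (SE 0.07, edgeR adjusted p = 5.43e-05). RC against CC was -0.05 ± 0.07 (edgeR adjusted p = 0.564) and PC against TC was -0.11 ± 0.07 (edgeR adjusted p = 0.273). The near-identical gene FOXO3B, with which reads could be shared, was listed at 19.1, 12.8 and 19.1 CPM in CC and between 12.1 and 14.2 CPM elsewhere. With both summed, the log2 fold change was 0.34 in TC (edgeR adjusted p = 0.00175) and 0.27 in PC (edgeR adjusted p = 0.00779). FOXO3 levels were ordered RC, CC, PC and TC, and of these neighbours only CC and PC differed.

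FOXO4, on chromosome X, 71095851 to 71103532, plus strand, encodes the factor whose promoter window held the FOXO element. Its level was 31.8, 26.0 and 27.8 CPM in CC libraries, 42.4, 41.0 and 38.2 in TC libraries, 36.2, 32.3 and 29.3 in PC libraries, and 20.3, 21.2 and 23.7 in RC libraries. TC lay above and RC below every other group, and PC overlapped CC. FOXO4 rose by 0.50 ± 0.10 on the log2 scale in TC (edgeR adjusted p = 0.000713). In PC it was 0.19 ± 0.10 above CC (edgeR adjusted p = 0.109), which passed the threshold without CC replicate 1 (edgeR adjusted p = 0.0358) or PC replicate 3 (edgeR adjusted p = 0.0466). In RC it was lower than in CC, at -0.39 ± 0.10 (edgeR adjusted p = 0.00926), and lower than in PC, at -0.59 ± 0.10 (edgeR adjusted p = 0.00022). PC against TC was -0.31 ± 0.10 (edgeR adjusted p = 0.0385). That call was lost with library totals in place of TMM (edgeR adjusted p = 0.0649) and without TC replicate 1 (0.126), TC replicate 2 (0.101), PC replicate 2 (0.107), PC replicate 3 (0.155) or RC replicate 2 (0.058). FOXO4 levels were ordered RC, CC, PC and TC, and CC and PC were not told apart.

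Per kilobase of exon, FOXO1 made up 20.3%, 22.1% and 25.7% of the summed FOXO1, FOXO3 and FOXO4 level in CC. The FOXO1 share was 12.4%, 12.3% and 13.9% in TC libraries, 10.4%, 11.6% and 11.7% in PC libraries, and 28.1%, 28.7% and 25.5% in RC libraries. The FOXO3 share averaged 37.98% ± 0.349 (CC), 43.0% ± 1.45 (TC), 47.1% ± 2.03 (PC) and 40.0% ± 0.604 (RC) (SD, n = 3). The FOXO4 share averaged 39.3% ± 3.11 (CC), 44.1% ± 2.12 (TC), 41.7% ± 2.72 (PC) and 32.6% ± 1.95 (RC). The FOXO1 share was lower in every TC and PC library than in any CC or RC library.

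The steps after drug removal were compared directly, from day 0 to day 2 and from day 2 to day 9. From TC to PC, 1 of the 9 genes rose (IRS1) and 2 fell (FOXO1 and FOXO4), against 12.2% and 12.5% of all tested genes, with a median log2 fold change of -0.15. From PC to RC, 2 rose (SGK1 and FOXO1) and 6 fell, against 35.7% and 34.2% of all tested genes, with a median of -0.59. PC is shared by these 2 comparisons.

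**Figure D4:**
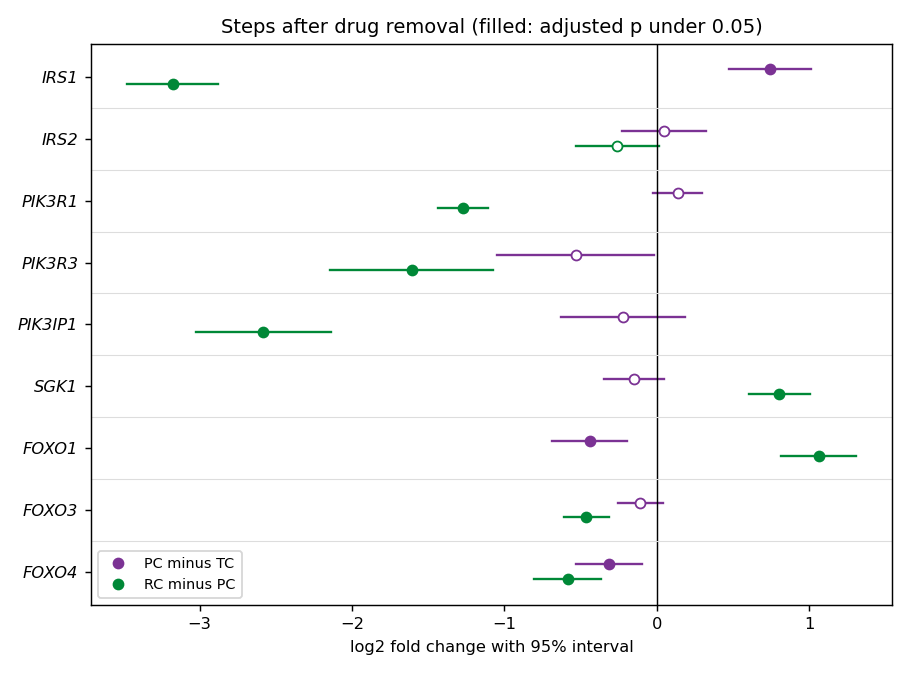
Log2 fold change (horizontal axis) of the 9 genes from TC to PC (day 0 to day 2 without drug) and from PC to RC (day 2 to day 9), with 95% intervals. Filled points have an adjusted p under 0.05. From TC to PC only IRS1, FOXO1 and FOXO4 pass, and IRS1 has the lowest value from PC to RC, at -3.18.

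Across the 12 libraries, the genes with the most similar profile of log2 CPM were found among 11912 tested genes with a mean count of at least 100. These correlations rest on 4 groups of shared treatment and describe likeness only. IRS1 was most like ERMAP (Pearson r = 0.996) and LOC728392 (0.993), and PIK3R1 most like MAP4K3 (0.998) and ATP2C1 (0.997). PIK3R3 was most like ABCB5 (0.995) and INSYN1 (0.991), and PIK3IP1 most like IQSEC2 (0.996) and APC2 (0.993). SGK1 was most like MACF1 (0.987) and GSPT1 (0.985), and FOXO1 most like EWSR1 (0.990) and RANBP2 (0.988). FOXO3 was most like ZNF827 (0.994) and GSK3B (0.992), the latter a kinase that AKT inhibits. FOXO4 was most like ZNF646 (0.979) and BBS1 (0.979). IRS2 had the weakest best matches, GPM6B (0.904) and SORBS3 (0.852).

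The rest of the pathway was described by 92 genes in 6 lists, of which 73 were tested. The lists were also chosen with earlier results of these data known, so their shares are a description only. In TC against CC 32 of the 73 rose (43.8%) and 24 fell (32.9%), against 33.2% and 34.7% of all tested genes, and 11 and 10 of them did so beyond 1.5-fold, against 16.1% and 19.3%. In PC against CC 33 rose (45.2%) and 27 fell (37.0%), against 33.2% and 35.9%. In RC against CC 14 rose (19.2%) and 21 fell (28.8%), against 18.2% and 19.1%. From PC to RC 21 rose (28.8%) and 29 fell (39.7%), against 35.7% and 34.2%. The median log2 fold change of the 73 was 0.18 in TC, 0.16 in PC and -0.12 in RC, beside -0.02, -0.04 and 0.00 over all tested genes.

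Among receptors and ligands, 8 of 14 genes were tested, and 2 rose (25%) and 4 fell (50%) in TC, against 33.2% and 34.7% of all tested genes. The 8 were receptors and IGF-binding proteins, and no ligand was among them. The receptors INSR and IGF1R were at 24.6, 23.7 and 25.96 CPM and at 126, 131 and 149.6 CPM in TC, below the CC ranges of 28.6 to 32.4 and 187 to 237. The receptor IGF2R also fell in TC, with overlap (log2 fold change -0.35 ± 0.13, edgeR adjusted p = 0.0254). IGFBP5, a secreted binding protein of IGFs, was 2.79 ± 0.63 CPM in CC libraries and 79.4 ± 5.31 in TC libraries (SD, n = 3), 28.6-fold higher (edgeR adjusted p = 1.71e-10). IGFBP6, which prefers IGF2, rose 3.34-fold (edgeR adjusted p = 9.48e-08). IGFBP2 fell by 0.84 on the log2 scale (edgeR adjusted p = 4.84e-06). In RC the last 2 did not pass the test, and IGFBP5 was at the threshold (0.40 ± 0.15, edgeR adjusted p = 0.0506). IGF1, IGF2 and INS were under the filter. IGF2 and INS were at 0 CPM in every library. IGF1 was low but not even, at 0.0212 to 0.0494 CPM in CC, 0.205 to 0.648 in TC, 0.139 to 0.1955 in PC and 0 to 0.0756 in RC. It was not tested.

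In the list of other adaptors, 6 of 11 tested genes rose (54.5%) and 4 fell (36.4%) in TC, against 33.2% and 34.7% of all tested genes. This list also held PTPN1 and PTPN11, which are tyrosine phosphatases and not adaptors. Both were among the 6 that rose (edgeR adjusted p = 0.000139 and 0.00184). SH2B1, an adaptor that enhances insulin receptor signalling, rose 2.13-fold (edgeR adjusted p = 1.03e-06). GRB10 and GRB14, adaptors that inhibit the insulin receptor, fell by 1.62 on the log2 scale (edgeR adjusted p = 1.04e-06) and by 2.38 on the log2 scale (edgeR adjusted p = 1.04e-06). GRB10 lay at 124, 92.7 and 153 CPM in CC and at 37.1, 40.8 and 42.4 in TC, and GRB14 at 3.11, 3.77 and 3.07 in CC and 0.570, 0.486 and 0.839 in TC. Unlike SH2B1, SH2B2 fell by 0.83 on the log2 scale (edgeR adjusted p = 0.000474). GAB2 also fell, by 1.24 on the log2 scale (edgeR adjusted p = 4.44e-08). The adaptor IRS4 was under the filter.

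Among the 8 tested PI3K subunits beside PIK3R1 and PIK3R3, 2 rose (25%) and 3 fell (37.5%) in TC, against 33.2% and 34.7% of all tested genes, and none passed beyond 1.5-fold. The catalytic subunit PIK3CA was at 62.8 CPM on average in CC and 70.3 in TC, with overlap, and did not pass the test (edgeR adjusted p = 0.127). PIK3CB was at 103 and 83.3 CPM, and it fell without overlap (edgeR adjusted p = 0.00947). Of 6 tested phosphatases that oppose PI3K or AKT, 3 rose (50%) and 0 fell in TC, against 33.2% and 34.7% of all tested genes.

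Of 20 tested kinases and regulators of AKT and mTOR, 11 rose (55%) and 6 fell (30%) in TC, against 33.2% and 34.7% of all tested genes. RPS6KB1, the S6 kinase, rose 2.25-fold (edgeR adjusted p = 2.41e-08), and PDPK1, which activates AKT, SGK1 and S6 kinase, 1.97-fold (edgeR adjusted p = 3.95e-05). EIF4EBP1, an inhibitor of cap-dependent translation that mTOR inactivates, fell by 1.73 on the log2 scale (edgeR adjusted p = 3.69e-10).

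Of 20 tested genes described elsewhere as FOXO targets, 8 rose (40%) and 7 fell (35%) in TC, where 33.2% and 34.7% of all tested genes did, 8 rose and 9 fell in PC, where 33.2% and 35.9% did, and 1 rose and 10 fell in RC, where 18.2% and 19.1% of all tested genes rose and fell. KLF2, a transcription factor, was 15.1-fold higher in TC (edgeR adjusted p = 6.46e-08), from 1.53, 2.15 and 3.11 CPM in CC to 23.8, 34.1 and 44.8 in TC. SESN3, a stress protein that restrains mTORC1, rose 3.82-fold in TC (edgeR adjusted p = 1.07e-08) and stood 5.37-fold above CC in PC (edgeR adjusted p = 1.98e-09) and 1.67-fold above CC in RC (edgeR adjusted p = 0.000226). PDK4, which inhibits pyruvate dehydrogenase, fell by 5.17 on the log2 scale in TC (edgeR adjusted p = 1.55e-09), from 204, 245 and 275 CPM to 8.86, 5.67 and 5.65. S1PR1, a lipid receptor, averaged 1.91 CPM in CC and had 1 to 3 counts in each TC library, 6 in all, a ratio to CC of 0.0239 (95% exact counting interval 0.0087 to 0.0528). The median over this list was 0.10 in TC, -0.16 in PC and -0.33 in RC, beside -0.02, -0.04 and 0.00 over all tested genes. In RC, SESN3 was the 1 gene of this list that was higher than in CC.

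**Figure D5:**
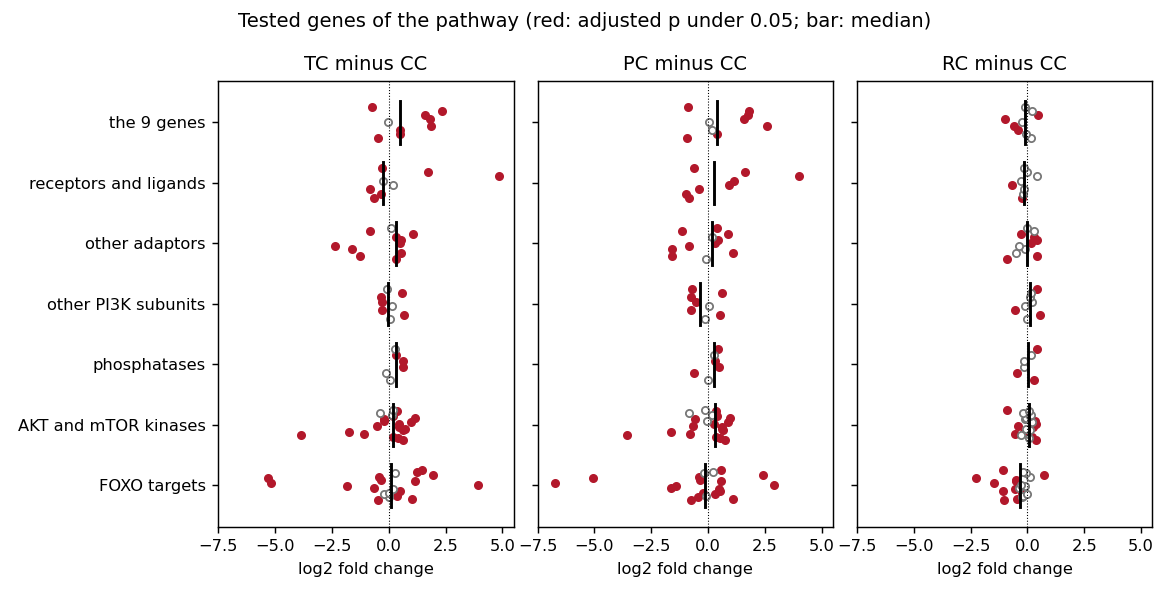
Log2 fold change (horizontal axis) of the 9 genes (top line) and of the 73 tested genes of 6 pathway lists in TC, PC and RC against CC. Each point is a gene, red points have an adjusted p under 0.05, and vertical bars are list medians. Genes rise and fall within most lists in TC and PC, and the spread is smaller in RC.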

How the data were processed

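The authors deposited unnormalized counts of reads on each gene in 12 libraries: reads were trimmed with fastp 0.20.1, aligned to GRCh38.p13 with HISAT2 2.2.1 and counted on exons of the NCBI annotation with htseq-count 0.13.5. Strandedness and the handling of multimapping reads were not stated. The 9 genes and all lists were chosen with earlier results of these data known. Genes with a scaled mean count of at least 10 were tested. TMM factors ran from 0.965 to 1.02. All 12 libraries entered 1 quasi-likelihood fit with group means (edgeR 4.0.16 under R 4.3.3), which left 8 residual degrees of freedom at a common dispersion whose square root was 0.182. The procedure was tested on simulated data. TC, PC and RC were compared with CC, and each recovery step with the group before it. Standard errors were derived from the F statistic. The alternatives were DESeq2 1.42.0, RLE size factors, library totals, a summed count of at least 2, a replicate block, only the 2 groups compared, and each library left out. Named genes were the 9, the 2 largest rises and falls beyond 1.5-fold in TC in each list, the 2 most correlated genes for each of the 9 (log2 of CPM plus 0.5), and DUSP6 and SPRY4. A gene that this rule names is not reported here. INSR, IGF1R, PIK3CA, PIK3CB, IRS4, IGF1, IGF2, INS, FOXO3B, P3R3URF-PIK3R3 and, beside PIK3R3, MITF, PMEL and DCT were named after their values were seen, and RC was also set against TC then. PIK3R2, GAB2, SH2B2, PTPN1, PTPN11 and IGF2R were also named after their values were seen. Depth limits precision: 3 counts are 0.0534 to 0.0785 CPM, a floor that covers counting error only. No 2 libraries of a group were duplicates.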

Additional observations from a re-analysis of the deposited data

How the results depend on the processing

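Over the 9 genes and 5 comparisons, 790 of 815 alternative values kept their direction and their side of the threshold, 6 lost a call, 10 gained one and 9 changed sign. The changed calls stand in the report. Without CC replicate 1 SGK1 in RC, and without CC replicate 3 FOXO1 in RC and PIK3R1 from TC to PC, passed the threshold. The sign changes were all in uncalled values near 0 with 1 library left out: IRS2 in TC against CC (-0.162 to 0.0834, above 0 without CC replicate 1 (0.03), CC replicate 3 (0.01), TC replicate 2 (0.02) or TC replicate 3 (0.0834)), in PC against CC (-0.0813 to 0.117, below 0 without CC replicate 2 (-0.05) or PC replicate 1 (-0.0813)) and from TC to PC (-0.0655 to 0.202, below 0 without TC replicate 3 (-0.05) or PC replicate 1 (-0.0655)), and FOXO3 in RC against CC (-0.130 to 0.0072, above 0 without CC replicate 3). In RC against CC the same held for IGFBP6 (-0.0967 to 0.0409), GRB10 (-0.291 to 0.0676), RPS6KB1 (-0.0731 to 0.0101) and KLF2 (-0.484 to 0.0343).

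Of the 9 genes, those lower beyond 1.5-fold in TC numbered 0 in place of 1 with DESeq2 at that threshold, RLE size factors, a summed count of at least 2 or only the 2 groups compared, and 0 to 1 with a library left out. Those lower from TC to PC numbered 1 in place of 2 with library totals. The median over pathway genes in PC against CC was 0 in place of 0.16 with a summed count of at least 2, where more genes enter, and in RC against CC it was -0.0865 with library totals. With DESeq2 at the 1.5-fold threshold 143 genes in place of 215 were higher in RC than in CC.

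With 1 library left out, the 9 genes gave 1 to 2 higher in RC against CC, 0 to 1 lower beyond 1.5-fold in RC, 1 to 2 higher from TC to PC and 1 to 3 lower from TC to PC. Genes higher and lower beyond 1.5-fold in RC against CC ran from 117 to 378 and from 224 to 523, pathway genes from 0 to 1 and from 3 to 6, and all genes lower from TC to PC from 1259 to 2469. Pathway medians ran from 0.0421 to 0.214 in TC, 0.0175 to 0.210 in PC, -0.142 to -0.0244 in RC against CC and -0.113 to -0.0498 in RC against PC. The cause was not tested.

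Replicate numbers were not taken to pair the samples, since only 2 of the 18 same-number pairs of libraries had deviations correlated at over 0.1 (range -0.05 to 0.20). Both were pairs of TC with PC, those of replicate 1 (0.202) and replicate 3 (0.181). The column labels of the groups share their endings, and what these stand for is not stated. As a hint and not a stated pairing, 10 of 12 libraries were most alike to a library of their own number. The 9 same-number pairs among CC, TC and PC were all above 0 (0.0069 to 0.202). With a replicate block, 6 of the 9 genes were higher and 2 lower in TC, and 5347 and 5511 of all genes, and no call among the 9 changed. Between TMM, RLE and library total scaling, the median of all genes moved by under 0.1 on the log2 scale. Groups of 3 were too small for an outlier test.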
